A study of Homo sapiens with 18 samples.

Results

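The RNA of 7 kinases that promote cell survival, PIM1, PIM2, PIM3, AKT1, AKT2, PDPK1 and SGK1, was followed across all groups of a knockdown experiment in THP-1, a human monocytic leukaemia cell line. The members are the rows of the count table whose Ensembl identifiers carry these symbols, 7 of 63677 genes, and all 7 were among the 16678 genes that passed the filter on low counts. PIM2 and AKT2 were chosen because of their levels in LPS-stimulated cells (PIM2 for the knockdown against WT, AKT2 for both siRNA conditions against WT), so those comparisons are described here without a test.

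The study asked what changes in monocytic cells when TRAFD1, a gene proposed as a brake on NF-kB signalling, is depleted at rest and during the response to lipopolysaccharide (LPS), a bacterial cell wall component. There were 6 groups of 3 libraries. KD cells received 25 nM of an siRNA against TRAFD1, SCR cells 25 nM of a scrambled siRNA, and WT cells no siRNA. The cells were then given medium or LPS at 10 ng/ml for 4 h, starting 72 h after transfection. The labels disagree on WT, which the series text calls untreated and the sample protocol describes as cells given the transfection mix alone, so that an effect of the siRNA and one of the reagent cannot be told apart in comparisons with WT. All groups are the same cell line, knockdown was by a single siRNA, and beyond the word triplicate nothing says that the libraries of a group are separate cultures, so that p-values measure only the spread between these libraries. Replicates are numbered 1 to 3 in medium and 4 to 6 with LPS.

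PIM kinases are serine/threonine kinases that are active as soon as they are made, so that their amount is set largely by transcription and by turnover of RNA and protein, and cytokine and Toll-like receptor signals induce them in blood cells. AKT kinases are instead held in an inactive form until PI3K makes a membrane lipid that recruits them, where PDPK1 and the mTORC2 complex phosphorylate them; SGK1 is a relative of AKT that also needs PDPK1 but whose RNA is itself strongly inducible. These kinases share substrates such as BAD, FOXO factors and regulators of translation. The libraries measure RNA only, not kinase activity.

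Total counts ran from 8206023 to 22344279 per library, and a floor of 3 counts in a library, below which a gene cannot be told from 0, stood for 0.133 to 0.378 CPM (counting error only). CPM here are counts scaled to a common library size, with library totals adjusted by the TMM method; the sequencing protocol reads transcripts from their 3′ end, so values were not divided by length and are compared within a gene, not between genes. TRAFD1, the siRNA target, stood at 26.8, 20.1 and 24.3 CPM in SCR and at 11.6, 5.37 and 9.02 CPM in KD in medium, a log2 difference of -1.45 with a standard error (SE) of 0.23 (edgeR adjusted p = 0.0277). With LPS the SCR libraries held 21.9, 27.5 and 18.7 CPM and the KD libraries 15.8, 14.0 and 13.8 CPM, which did not overlap, but the difference did not pass the test (-0.65 ± 0.22, edgeR adjusted p = 0.262). The 10 monocyte and myeloid markers had counts in all 18 libraries, among them FCGR1A at 249 to 342 CPM and CD14 at 8.52 to 43.1 CPM, whereas the T cell markers CD3D and CD3E were at 0 in 16 and 17 libraries, the erythroid markers HBB and ALAS2 at 0 in all 18, and the epithelial marker EPCAM at 0 in 15. The sum of the myeloid list ran from 492 to 561 CPM in WT, 559 to 630 in SCR and 600 to 669 in KD in medium, and from 551 to 563, 527 to 569 and 559 to 619 CPM with LPS; its part in the results below was not tested. In bulk RNA, fewer cells of a kind and less RNA per cell cannot be told apart.

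**Figure D1:**
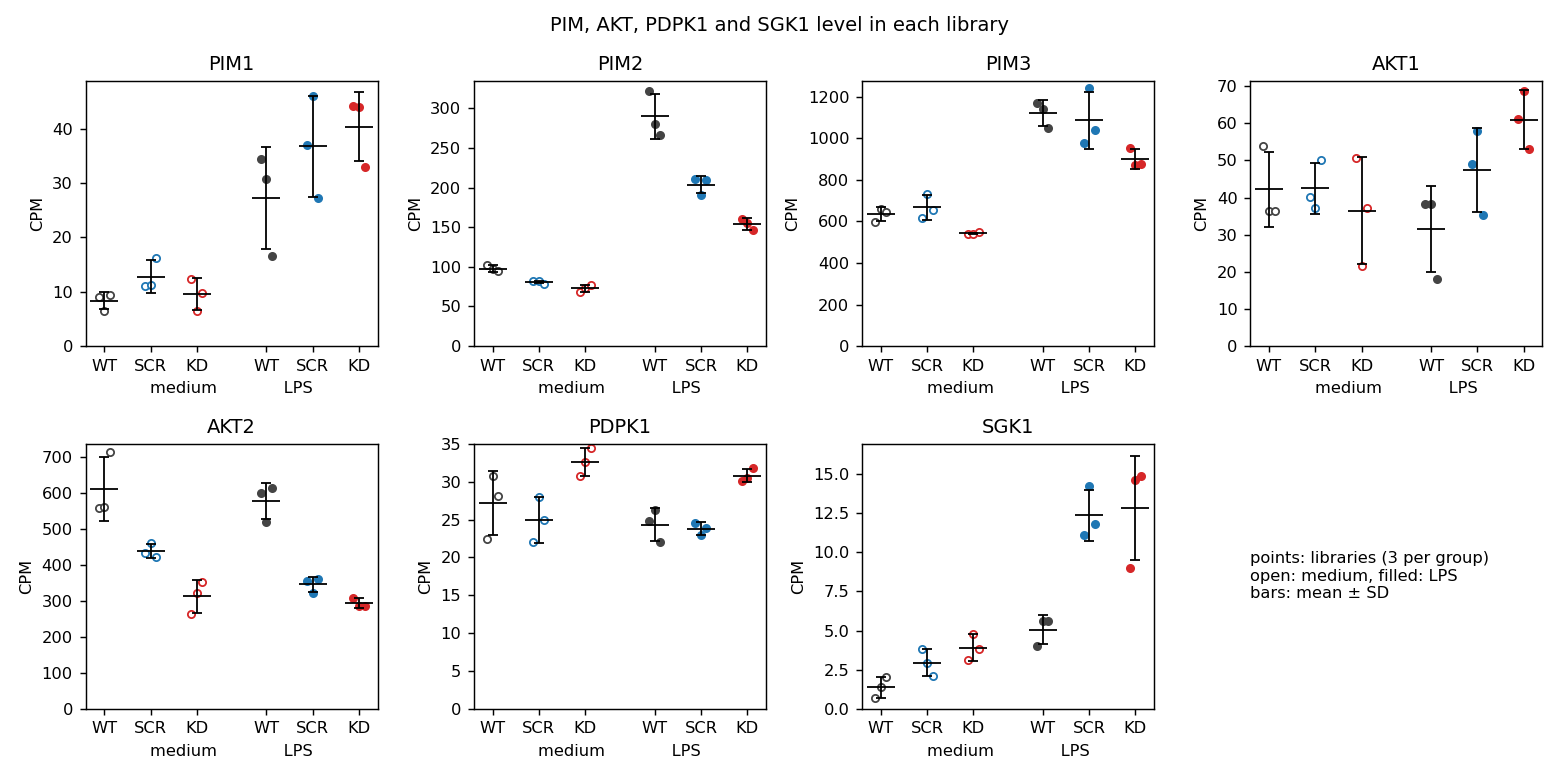
Level of each kinase in CPM (linear axes starting at 0), 1 point per library, for WT, SCR and KD in medium (open points) and with LPS (filled points); horizontal lines and bars are means ± SD of 3 libraries. PIM2 separates all 6 groups, PIM1, PIM3 and SGK1 are higher with LPS within each condition, and AKT2 is lower in SCR and KD than in WT in either state.

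The PIM genes lie at separate loci. On GRCh37, PIM1 (ENSG00000137193) spans chr6:37137928-37143204 on the plus strand, PIM2 (ENSG00000102096) spans chrX:48770459-48776301 on the minus strand, and PIM3 (ENSG00000198355) spans chr22:50354416-50357720 on the plus strand. Because their RNAs moved together with LPS, the 250 bases before each RefSeq transcription start are shown 5′ to 3′ on the strand of the gene, from GRCh38.p14 at chr6:37169902-37170151, chrX:48919025-48919274 and chr22:49960522-49960771; capitals mark the octamer ATGCAAAT or its reverse complement.
PIM1: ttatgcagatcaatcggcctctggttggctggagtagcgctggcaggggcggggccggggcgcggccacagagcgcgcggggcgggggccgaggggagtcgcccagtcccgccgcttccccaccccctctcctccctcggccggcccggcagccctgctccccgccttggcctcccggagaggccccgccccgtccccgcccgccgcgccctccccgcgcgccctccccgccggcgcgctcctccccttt
PIM2: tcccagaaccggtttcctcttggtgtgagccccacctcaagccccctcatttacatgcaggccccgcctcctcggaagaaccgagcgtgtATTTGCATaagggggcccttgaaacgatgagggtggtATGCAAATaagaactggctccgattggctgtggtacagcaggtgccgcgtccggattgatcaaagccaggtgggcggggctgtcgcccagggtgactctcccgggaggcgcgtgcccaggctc
PIM3: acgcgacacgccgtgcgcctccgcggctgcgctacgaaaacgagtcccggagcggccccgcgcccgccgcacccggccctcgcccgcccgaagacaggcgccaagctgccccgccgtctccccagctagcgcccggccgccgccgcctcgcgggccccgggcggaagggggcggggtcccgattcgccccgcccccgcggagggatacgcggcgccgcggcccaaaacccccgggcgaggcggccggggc

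The PIM1 and PIM3 windows are rich in G and C (79.6% and 82.0%, with 32 and 47 CpG dinucleotides), and the PIM2 window less so (61.2%, with 15). The PIM2 window held the octamer 2 times, once on the strand of the gene at 123 to 116 bases before the start and once on the opposite strand at 160 to 153 bases before it. Of 35116 human promoter windows of the same length, 1.63% held this octamer on either strand; it was looked for only after the PIM2 sequence had been seen. A search of both strands found no match in these 3 windows to the NF-kB consensus (in 5.21% of promoter windows), the STAT motif TTCNNNGAA (6.57%) or the FOXO motif GTAAACA (2.98%), which says only that these letters are not in these windows.

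With LPS, all 3 PIM genes and SGK1 stood higher than in medium in each of the 3 siRNA conditions, with no overlap of libraries, whereas no call was made for AKT1 or PDPK1. Among the members open to a test, 3 of 5 passed it in WT, 4 of 6 in SCR and 3 of 5 in KD, all of them higher with LPS. Over all genes tested, the shares that passed were 14.3%, 17.2% and 11.5% in WT, SCR and KD, and 7.01%, 8.64% and 6.41% passed as higher with LPS. PIM1, PIM3 and SGK1 passed as higher in all 3 conditions, as 2.82% of all genes did. Libraries with and without LPS did not overlap for 4 of 7 members in WT, 5 of 7 in SCR and 5 of 7 in KD, beside 32.5%, 37.3% and 25.4% of all genes. The median log2 fold change of the 7 members was 0.82 in WT, 0.70 in SCR and 0.74 in KD, beside medians of all genes of -0.03, -0.03 and -0.00. These medians and the counts without overlap include PIM2 and AKT2, which were chosen on LPS libraries, so nothing is read from them. The mitochondrial share of the counts, 3.19% to 3.37% in WT, 3.28% to 3.47% in SCR and 3.87% to 4.86% in KD in medium, was 3.82% to 4.45%, 3.72% to 5.2% and 4.28% to 5.14% with LPS; its part in the LPS changes was not tested.

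**Figure D2:**
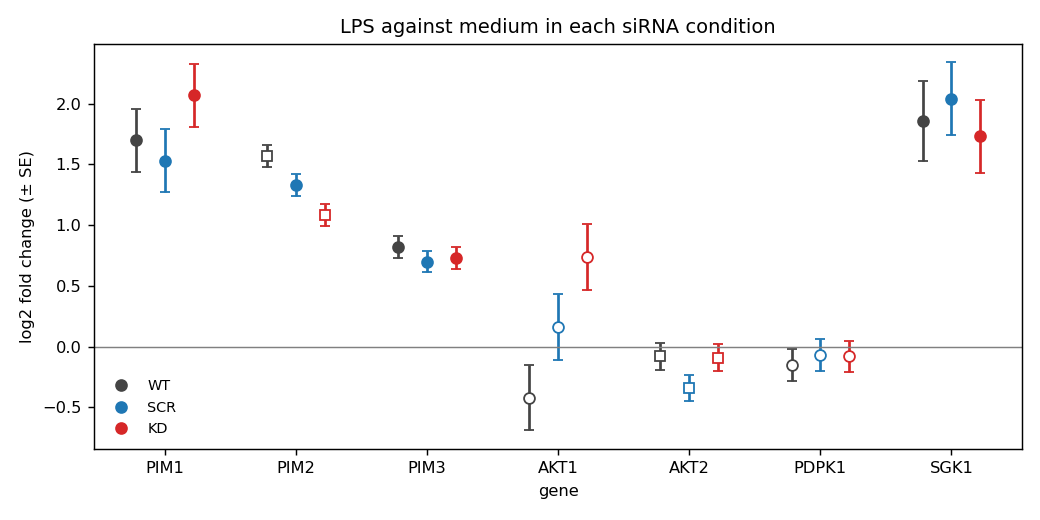
Log2 fold change of LPS against medium for each kinase in WT, SCR and KD, with bars of ± 1 SE from the edgeR fit; filled circles passed an adjusted p of 0.05, open circles were tested and did not, and squares were not tested. PIM1 and SGK1 lie between 1.53 and 2.07, PIM2 falls from 1.57 in WT to 1.08 in KD, and PIM3 lies between 0.70 and 0.82. AKT1 is at -0.42 in WT, 0.16 in SCR and 0.74 in KD. AKT2 lies between -0.34 and -0.08, and PDPK1 between -0.15 and -0.07.

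PIM1, the inducible founding member of the family, was at 8.99, 6.54 and 9.43 CPM in WT, 11.0, 11.2 and 16.2 CPM in SCR and 12.3, 6.53 and 9.80 CPM in KD in medium. With LPS it was at 34.4, 30.8 and 16.6 CPM in WT, 36.9, 46.0 and 27.3 CPM in SCR and 44.2, 43.9 and 33 CPM in KD. Every LPS library was thus above every medium library of any condition, though only narrowly so for WT replicate 6, at 16.6 CPM, beside SCR replicate 3 in medium, at 16.2 CPM. PIM1 rose with LPS 3.25-fold in WT (log2 1.70 ± 0.26, edgeR adjusted p = 8.94e-05), 2.88-fold in SCR (1.53 ± 0.26, edgeR adjusted p = 0.000285) and 4.21-fold in KD (2.07 ± 0.26, edgeR adjusted p = 1.19e-05). Without WT replicate 6 the log2 fold change in WT was 1.96. The response in KD minus that in SCR was 0.55 ± 0.36 on the log2 scale (95% interval -0.16 to 1.26, edgeR adjusted p = 0.739).

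PIM2, a second PIM kinase of blood cells that sustains growth by acting on translation, had coefficients of variation of 2.34% to 9.89% within its groups. In medium it was at 102, 97.4 and 94.4 CPM in WT, 81.7, 82.3 and 78.8 CPM in SCR and 68.5, 73.2 and 77 CPM in KD. With LPS it was at 322, 281 and 267 CPM in WT, 211, 191 and 210 CPM in SCR and 161, 156 and 146 CPM in KD. The 6 groups did not overlap and ran, from low to high, KD, SCR and WT in medium and then KD, SCR and WT with LPS. PIM2 rose with LPS 2.52-fold in SCR (log2 1.33 ± 0.09, edgeR adjusted p = 8.01e-10), the response it was not chosen on. The responses in WT and KD, which share libraries with the comparison that chose it, were 2.96-fold (1.57 ± 0.09) and 2.12-fold (1.08 ± 0.09) and were not tested.

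PIM3, the third member, was at 599, 661 and 645 CPM in WT, 615, 730 and 656 CPM in SCR and 540, 539 and 547 CPM in KD in medium. With LPS it was at 1170, 1140 and 1050 CPM in WT, 978, 1240 and 1040 CPM in SCR and 955, 869 and 876 CPM in KD. All LPS libraries were above all medium libraries, and in either state KD was the lowest group with no overlap, while WT and SCR overlapped. PIM3 rose with LPS 1.77-fold in WT (log2 0.82 ± 0.09, edgeR adjusted p = 6.54e-07), 1.63-fold in SCR (0.70 ± 0.09, edgeR adjusted p = 7.69e-06) and 1.66-fold in KD (0.73 ± 0.09, edgeR adjusted p = 5.62e-06). The KD and SCR responses differed by 0.03 ± 0.12 (95% interval -0.21 to 0.27, edgeR adjusted p = 0.966).

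SGK1 (ENSG00000118515, chr6:134490386-134639250, minus strand), a kinase that regulates ion transport and, like AKT, phosphorylates FOXO factors, was the member with the fewest reads, 12 to 244 counts per library. It was at 0.678, 1.36 and 2.05 CPM in WT, 3.82, 2.92 and 2.08 CPM in SCR and 3.09, 4.79 and 3.81 CPM in KD in medium. With LPS the values were 3.99, 5.60 and 5.58 CPM in WT, 11.1, 14.2 and 11.8 CPM in SCR and 9.0, 14.6 and 14.9 CPM in KD. WT was the lowest group with LPS, with no overlap with either siRNA group, and SCR and KD overlapped in both states. SGK1 rose with LPS 3.63-fold in WT (log2 1.86 ± 0.33, edgeR adjusted p = 0.000451), 4.13-fold in SCR (2.04 ± 0.30, edgeR adjusted p = 6.62e-05) and 3.31-fold in KD (1.73 ± 0.30, edgeR adjusted p = 0.000456). The KD response minus the SCR response was -0.32 ± 0.42 (95% interval -1.14 to 0.50, edgeR adjusted p = 0.881).

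AKT1 (ENSG00000142208, chr14:105235686-105262088, minus strand), the widely expressed AKT isoform, had scattered levels. It was at 53.9, 36.5 and 36.4 CPM in WT, 40.1, 37.2 and 50.2 CPM in SCR and 50.6, 21.7 and 37.2 CPM in KD in medium, and at 38.2, 38.4 and 18.1 CPM in WT, 49.1, 57.8 and 35.3 CPM in SCR and 61.1, 68.8 and 53.1 CPM in KD with LPS. Ordered by mean, each group overlapped the next one. The log2 difference with LPS was -0.42 ± 0.27 in WT (edgeR adjusted p = 0.348), 0.16 ± 0.27 in SCR (edgeR adjusted p = 0.747) and 0.74 ± 0.27 in KD (edgeR adjusted p = 0.0783). The value in KD, where the 3 LPS libraries lay above the 3 medium libraries, passed the threshold without KD medium replicate 1 (log2 1.05, edgeR adjusted p = 0.00889), and without KD medium replicate 2, the lowest library, it was 0.48 (edgeR adjusted p = 0.265). The response in KD minus that in SCR was 0.58 ± 0.38 (95% interval -0.16 to 1.32, edgeR adjusted p = 0.735). The last 500 exonic bases of AKT1 overlap an unnamed gene on the opposite strand (ENSG00000258430) by 240 bases; that gene had 33 counts over all libraries, and the strand setting of the counting is not given in the sources used here.

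AKT2 (ENSG00000105221, chr19:40736224-40791443, minus strand), the isoform best known for insulin signalling, was at 559, 562 and 715 CPM in WT, 433, 462 and 422 CPM in SCR and 264, 321 and 354 CPM in KD in medium. With LPS it was at 601, 520 and 614 CPM in WT, 355, 322 and 362 CPM in SCR and 309, 285 and 286 CPM in KD. The LPS and medium libraries overlapped in WT and in KD, and in SCR the LPS libraries lay below those in medium. These LPS differences, log2 -0.08 ± 0.11 in WT, -0.34 ± 0.11 in SCR and -0.09 ± 0.11 in KD, were not tested, because AKT2 was chosen on the LPS groups.

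PDPK1 (ENSG00000140992, chr16:2587980-2653189, plus strand), the kinase that phosphorylates AKT and SGK1, had nearly level values between medium and LPS within each condition. In either state its KD libraries lay above those of SCR. In medium it was at 22.5, 30.8 and 28.1 CPM in WT, 22, 28.0 and 24.9 CPM in SCR and 30.8, 32.6 and 34.4 CPM in KD; with LPS it was at 24.8, 26.2 and 22 CPM in WT, 24.6, 22.9 and 23.9 CPM in SCR and 30.1, 30.5 and 31.8 CPM in KD. LPS and medium libraries overlapped within each condition. The log2 differences with LPS were -0.15 ± 0.13 in WT (95% interval -0.40 to 0.10), -0.07 ± 0.13 in SCR (-0.32 to 0.19) and -0.08 ± 0.13 in KD (-0.33 to 0.17), with edgeR adjusted p of 0.506, 0.781 and 0.739. A stretch of 140 bases in the PDPK1 end is 90% identical to ERVK13-1, which had 1703 counts over all libraries, so reads there could be shared.

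In unstimulated cells the comparisons with WT turned on AKT2, PIM2 and SGK1. AKT2 was lower in both siRNA conditions, PIM2 was lower and SGK1 higher in KD, and no member passed the test between KD and SCR. In SCR against WT, 1 of 7 members passed the test, lower in SCR, beside 3.23% of all genes in either direction and 1.45% lower, and 4 of 7 did not overlap, beside 22.6% of all genes. In KD against WT, 3 of 7 passed, 1 higher and 2 lower, beside 11.7% of all genes (5.85% higher and 5.85% lower), and 4 of 7 did not overlap, beside 24.3%. The 2 comparisons share the WT libraries. The lower calls were AKT2 and PIM2, which were chosen on the same siRNA comparisons with LPS. Nothing is therefore read from these counts beside the shares of all genes. The mitochondrial share of the counts was above that of every WT library in medium in each KD library, and its part in these changes was not tested.

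**Figure D3:**
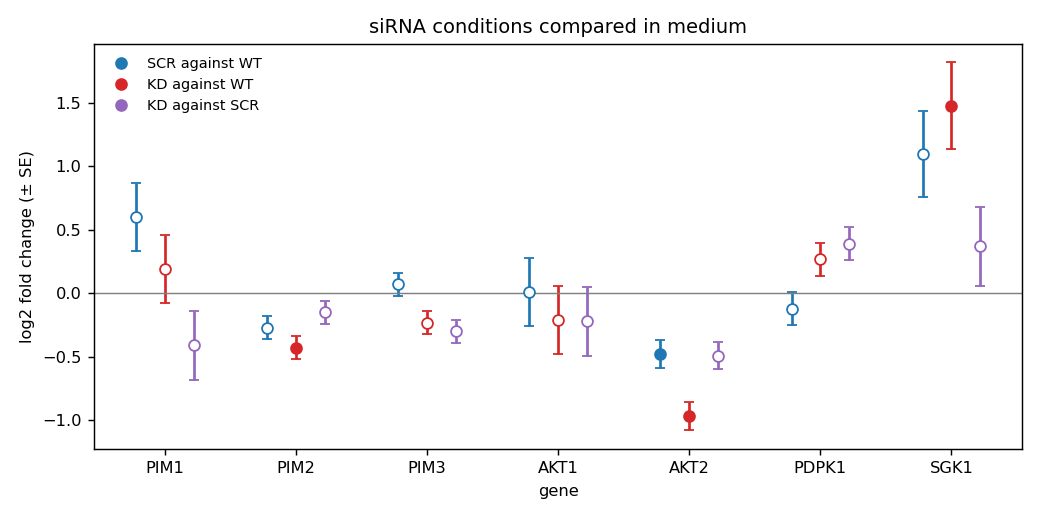
Log2 fold change between siRNA conditions in medium for each kinase, with bars of ± 1 SE from the edgeR fit; filled circles passed an adjusted p of 0.05 and open circles did not. AKT2 is at -0.48 in SCR and -0.97 in KD against WT, PIM2 at -0.43 and SGK1 at 1.48 in KD against WT, and the KD against SCR values are all open.

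AKT2 fell in SCR to 0.717 of its WT level (log2 -0.48 ± 0.11, edgeR adjusted p = 0.0176) and in KD to 0.512 of it (-0.97 ± 0.11, edgeR adjusted p = 1.78e-05). The 3 groups did not overlap and ran from 612 ± 89.0 CPM in WT over 439 ± 20.4 in SCR to 313 ± 45.7 in KD (mean ± SD, n = 3). The call in SCR was lost without SCR replicate 1 (-0.47, edgeR adjusted p = 0.0753), without SCR replicate 3 (-0.45, edgeR adjusted p = 0.0774) and without WT replicate 3, the highest library (-0.35, edgeR adjusted p = 0.119). In KD against SCR the log2 difference was -0.49 ± 0.11, which did not pass (95% interval -0.70 to -0.27, edgeR adjusted p = 0.0771); it passed with DESeq2 (-0.47, adjusted p = 0.0192) and without the filter on low counts (-0.49, edgeR adjusted p = 0.000803).

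PIM2 fell in KD to 0.745 of its WT level (log2 -0.43 ± 0.09, edgeR adjusted p = 0.0037), a call that was lost when only these 2 groups were fitted (-0.38, edgeR adjusted p = 0.123). In SCR it stood at 0.827 of WT with no overlap, which did not pass (-0.27 ± 0.09, edgeR adjusted p = 0.0963), and KD differed from SCR by -0.15 ± 0.09 (95% interval -0.33 to 0.02, edgeR adjusted p = 0.502). SGK1 rose in KD to 2.78 times its WT level (1.48 ± 0.34, edgeR adjusted p = 0.0066), again lost when these groups were fitted alone (1.54, edgeR adjusted p = 0.099). In SCR it stood at 2.15 times WT (1.10 ± 0.34, edgeR adjusted p = 0.0779), which passed with DESeq2 (1.10, adjusted p = 0.0298) and without WT replicate 3 (1.62, edgeR adjusted p = 0.0361).

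PIM1, PIM3, AKT1 and PDPK1 did not pass in either comparison with WT in medium. PIM1 was 1.52-fold higher in SCR without overlap (0.60 ± 0.27, edgeR adjusted p = 0.24), which passed without the filter on low counts (0.59, edgeR adjusted p = 0.0421), and its KD value was 0.19 ± 0.27 (edgeR adjusted p = 0.716). PIM3 was at 0.07 ± 0.09 in SCR (edgeR adjusted p = 0.742) and -0.23 ± 0.09 in KD (edgeR adjusted p = 0.0956). AKT1 was at 0.01 ± 0.27 in SCR (edgeR adjusted p = 0.995) and -0.21 ± 0.27 in KD (edgeR adjusted p = 0.671). PDPK1 was at -0.12 ± 0.13 in SCR (edgeR adjusted p = 0.689) and 0.27 ± 0.13 in KD (edgeR adjusted p = 0.188).

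The comparison of KD with SCR, both of which received an siRNA, gave no call among the 7 members in medium, nor among the 5 members that could be tested with LPS. Over all genes, edgeR called 0.066% in medium (11 genes, against 2107 at an unadjusted p under 0.05 and 242 with DESeq2) and 0.0% with LPS (0 genes, against 1963 at an unadjusted p under 0.05 and 142 with DESeq2). Libraries did not overlap for 4 of 7 members in medium, beside 15.1% of all genes, and for 4 of 7 with LPS, beside 21.5%. These were PIM2, PIM3, AKT2 and PDPK1 in either state. PIM2 and AKT2 were chosen on LPS libraries, for their levels in siRNA conditions against WT, so nothing is read from either count. PIM3 differed by -0.30 ± 0.09 in medium (95% interval -0.47 to -0.13, edgeR adjusted p = 0.141) and by -0.27 ± 0.09 with LPS (-0.44 to -0.10, edgeR adjusted p = 0.238). PDPK1 differed by 0.39 ± 0.13 in medium (0.14 to 0.64, edgeR adjusted p = 0.193) and by 0.37 ± 0.13 with LPS (0.12 to 0.63, edgeR adjusted p = 0.259). For PIM1, AKT1 and SGK1 the differences were -0.41, -0.22 and 0.37 in medium and 0.14, 0.37 and 0.06 with LPS, with edgeR adjusted p of 0.556 to 0.957.

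With LPS, the comparisons with WT are the ones on which PIM2 and AKT2 were chosen, and they are given as values alone. The siRNA target TRAFD1 was itself at -0.23 ± 0.23 on the log2 scale in KD against WT there, with overlapping libraries. PIM2 was at 0.702 of WT in SCR (log2 -0.51 ± 0.09) and 0.532 in KD (-0.91 ± 0.09), and AKT2 at 0.599 (-0.74 ± 0.11) and 0.508 (-0.98 ± 0.11). PIM3 was at -0.05 ± 0.09 in SCR and -0.32 ± 0.09 in KD on the log2 scale. SGK1 was 2.44-fold higher in SCR (1.29 ± 0.29) and 2.54-fold higher in KD (1.34 ± 0.29), and PDPK1 was at -0.04 ± 0.13 and 0.34 ± 0.13, the latter 0.18 once the GC content of each gene was modelled. PIM1 was at 0.43 ± 0.25 in SCR and 0.56 ± 0.25 in KD, and AKT1 at 0.58 ± 0.27 and 0.95 ± 0.27. WT replicate 6 was the lowest of the 3 WT libraries for both, and without it PIM1 was at 0.17 and 0.31 and AKT1 at 0.31 and 0.67. Libraries did not overlap for 3 of 7 members in SCR against WT and for 6 of 7 in KD against WT, where 22.8% and 35.0% of all genes did not; as these contrasts chose members, nothing is read from those shares.

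The difference between LPS responses is likewise a description where WT enters. The PIM2 response differed from that in WT by -0.24 ± 0.12 in SCR and -0.49 ± 0.13 in KD on the log2 scale, and that of AKT2 differed from WT by -0.26 ± 0.15 in SCR and -0.01 ± 0.15 in KD. The AKT1 response was 1.16 ± 0.38 larger in KD than in WT, and 0.88 to 1.47 larger with a library left out. Its low libraries, WT replicate 6 with LPS (18.1 CPM) and KD replicate 2 in medium (21.7 CPM), both enter this value. TRAFD1 had a like difference of 1.00 ± 0.32. For PIM1, PIM3, PDPK1 and SGK1 the KD response minus the WT response was 0.37 ± 0.37, -0.09 ± 0.12, 0.07 ± 0.18 and -0.13 ± 0.43. None of the 5 members tested differed in response between KD and SCR with edgeR, where 0.0% of all genes passed (0 genes, against 1274 at an unadjusted p under 0.05 and 3 with DESeq2); the adjusted p ran from 0.735 to 0.99.

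Around these kinases, 4 lists of pathway genes were followed in the same fit. The lists were written with earlier results of these data known. Their counts beside the shares of all genes are therefore a description. The list of PI3K subunits and lipid phosphatases had 14 of 15 genes tested (PIK3R6 was not matched), relatives and regulators of AKT and SGK 14 of 14, substrates 18 of 18 and FOXO target genes 13 of 14 (TXNIP did not pass the filter). With LPS, more genes passed the test as lower than as higher in each list and condition except the FOXO targets in SCR and KD. Of all genes, 7.26% passed as lower in WT, 8.56% in SCR and 5.05% in KD. As higher, 7.01%, 8.64% and 6.41% of them passed in WT, SCR and KD.

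**Figure D4:**
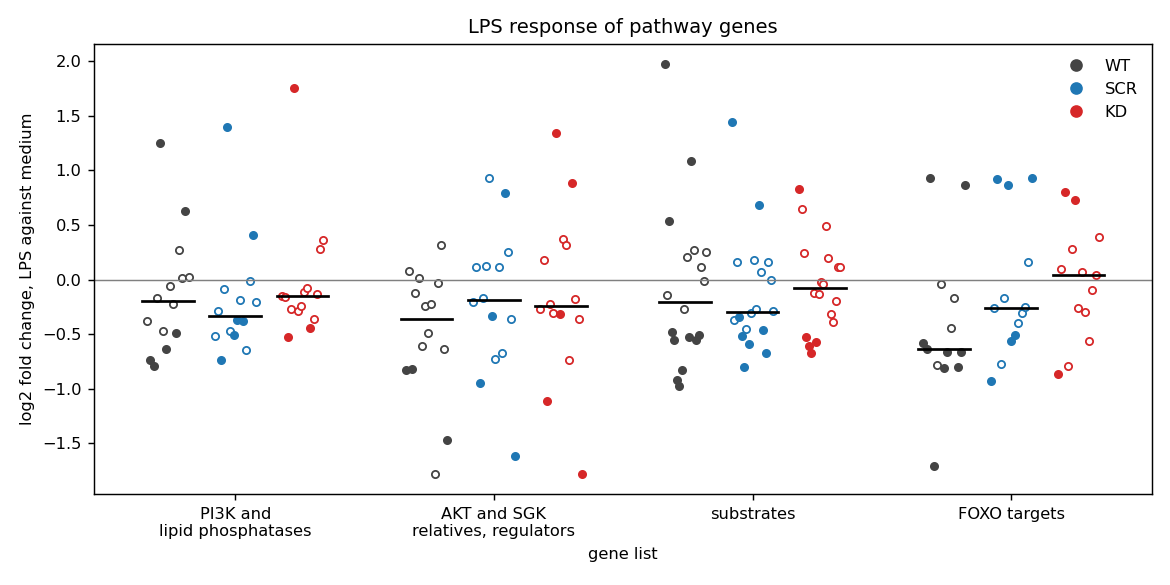
Log2 fold change of LPS against medium for each tested gene of the 4 pathway lists in WT, SCR and KD; filled points passed an edgeR adjusted p of 0.05, open points did not, and black lines are list medians. List medians lie between -0.64 and 0.04, with FOXO targets lowest in WT.

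Of the 14 PI3K and phosphatase genes, 2 rose and 4 fell in WT, 2 rose and 4 fell in SCR, and 1 rose and 2 fell in KD. PIK3AP1, an adaptor that links Toll-like receptors to PI3K, rose by 1.25 ± 0.21 on the log2 scale in WT, from 47.4 ± 10.4 to 113 ± 20.3 CPM (edgeR adjusted p = 0.000228), by 1.40 in SCR and by 1.75 in KD (edgeR adjusted p = 9.01e-05 and 7.35e-06). INPP5D, the phosphatase SHIP1 that removes the lipid AKT binds, fell by 0.79, 0.74 and 0.53 in WT, SCR and KD (edgeR adjusted p = 8.5e-06, 2.86e-05 and 0.00126). PIK3CB, a catalytic subunit, fell by 0.64 in WT and 0.51 in SCR (edgeR adjusted p = 0.000445 and 0.00358). The list median was -0.20 in WT, -0.33 in SCR and -0.16 in KD.

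Of the 14 relatives and regulators, 0 rose and 3 fell in WT, 1 rose and 3 fell in SCR, and 2 rose and 3 fell in KD. TRIB3, a pseudokinase that binds AKT, fell from 172 ± 35.0 to 62.1 ± 0.655 CPM in WT (log2 -1.47 ± 0.14), from 273 ± 4.10 to 88.5 ± 10.9 CPM in SCR (-1.62 ± 0.14) and from 258 ± 57.6 to 75.2 ± 4.67 CPM in KD (-1.78 ± 0.14), with edgeR adjusted p of 1.63e-07, 4.45e-08 and 1.46e-08. MLST8, a subunit of both mTOR complexes, fell by 0.82, 0.95 and 1.11 in WT, SCR and KD (edgeR adjusted p = 0.00531, 0.0016 and 0.000454). SGK3, the SGK isoform found on endosomes, rose by 0.79 in SCR and 0.88 in KD (edgeR adjusted p = 0.0459 and 0.033). The median of this list was -0.37 in WT, -0.19 in SCR and -0.24 in KD.

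Of the 18 substrates, 3 rose and 8 fell in WT, 2 rose and 6 fell in SCR, and 1 rose and 4 fell in KD. AKT1S1, the mTORC1 inhibitor PRAS40, rose by 1.97 ± 0.26, 1.44 ± 0.26 and 0.83 ± 0.25 in WT, SCR and KD (edgeR adjusted p = 1.31e-05, 0.000467 and 0.0363). EIF4EBP1, a repressor of translation, fell by 0.92, 0.80 and 0.67 in WT, SCR and KD (edgeR adjusted p = 2.73e-05, 0.000174 and 0.00114). FOXO3, a transcription factor that AKT and SGK1 keep out of the nucleus, fell by 0.83, 0.59 and 0.57 (edgeR adjusted p = 0.000179, 0.0047 and 0.00874). MAP3K5, the stress kinase ASK1, rose in WT by 1.09 and in SCR by 0.68 (edgeR adjusted p = 0.00132 and 0.0344). The median was -0.21 in WT, -0.30 in SCR and -0.08 in KD.

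Of the 13 FOXO target genes, 2 rose and 7 fell in WT, 3 rose and 3 fell in SCR, and 2 rose and 1 fell in KD. BCL6, a transcriptional repressor, rose by 0.93, 0.92 and 0.80 in WT, SCR and KD (edgeR adjusted p = 3.76e-05, 6.27e-05 and 0.000379). BBC3, which encodes the pro-apoptotic protein PUMA, fell by 0.58, 0.93 and 0.87 (edgeR adjusted p = 0.00332, 3.1e-05 and 8.67e-05). The insulin receptor gene INSR fell in WT by 0.81 and in SCR by 0.56 (edgeR adjusted p = 2.45e-05 and 0.00162). TNFSF10, which encodes the death ligand TRAIL, rose in WT by 0.87 and in SCR by 0.93 (edgeR adjusted p = 0.000102 and 6.7e-05). The medians were -0.64, -0.26 and 0.04 in WT, SCR and KD. Whether the conditions differ was not tested for the lists.

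In medium, KD against WT called 5 of the 14 PI3K and phosphatase genes, all lower. They were the catalytic subunits PIK3CD, from 512 ± 28.3 to 345 ± 41.8 CPM (log2 -0.57 ± 0.10, edgeR adjusted p = 0.000738), and PIK3CG (-0.69 ± 0.22, edgeR adjusted p = 0.0496), the regulatory subunits PIK3R3 (-0.68 ± 0.12, edgeR adjusted p = 0.000874) and PIK3R5 (-0.41 ± 0.13, edgeR adjusted p = 0.046), and the phosphatase INPP5D (-0.42 ± 0.10, edgeR adjusted p = 0.0101). Over all genes, 5.85% were called lower in this comparison, 5.85% higher and 11.7% in either direction. With only these groups fitted, the calls over all genes went from 1951 to 280. The pathway genes were not followed in that setting, nor with a library left out. Of the other lists, TRIB3 rose by 0.59, EIF4EBP1 by 0.57 and KLF2, a FOXO target and myeloid transcription factor, by 0.78 (edgeR adjusted p = 0.00823, 0.00561 and 0.00914), and TRIB2 fell by 1.00 (edgeR adjusted p = 0.0279). In SCR against WT, 2 of the 59 genes passed, TRIB3 (0.67, edgeR adjusted p = 0.00986) and PIK3R3 (-0.57, edgeR adjusted p = 0.00934). Over all genes, 3.23% passed there, a share close to that of the lists. None of the 59 passed between KD and SCR in medium or with LPS with edgeR, where DESeq2 called 2 and 3 of them.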

How the data were processed

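RNA in 18 THP-1 libraries was sequenced with the QuantSeq 3′ protocol. The authors trimmed the reads, aligned them to GRCh37 with HISAT and counted them with featureCounts over the 3′ end of each Ensembl gene; the deposited table holds raw counts, and 0 of its columns were left unused. Symbols came from GENCODE v44lift37. Genes were filtered with filterByExpr (minimum count 10, total 15), scaled by TMM and fitted with edgeR 4.0.16 in R 4.3.3, with a mean per group over all 18 libraries; quasi-likelihood p-values were adjusted by Benjamini-Hochberg over 16678 genes with a threshold of 0.05. The SE was taken from the fold change and the F statistic, and intervals are 95% normal intervals. The script was tested on simulated data. Library totals of 8206023 to 22344279 counts limit the precision of low genes.

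The members and lists were chosen with earlier results of these data known. PIM2 was not tested where WT or KD with LPS enters, nor AKT2 where any LPS group enters, and SCR or KD against WT with LPS was not tested for any member. Named genes are the 7 members, TRAFD1, per pathway list and comparison up to 5 genes with the smallest adjusted p past the threshold, and per member the 3 genes with the highest correlation of log2 CPM (prior count 2); some genes these rules name are not reported here. Alternatives were RLE normalization, DESeq2 1.42.0, no filter, the compared groups alone, GC offsets, a replicate block and leaving out each library. Same-numbered libraries deviated together only for SCR and WT with LPS (correlations 0.163 to 0.261), so numbers were taken to pair libraries there; the LPS responses share no numbers and were not blocked. Promoter sequences are from RefSeq (GRCh38.p14), in which all 7 members matched.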

Additional observations from a re-analysis of the deposited data

How the results depend on the processing

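The calls of PIM1, PIM3 and SGK1 with LPS in all 3 conditions, of PIM2 with LPS in SCR and of AKT2 in KD against WT in medium were kept under every alternative run. Of the member values with a test, 249 of those under other settings kept direction and side of the threshold, 9 passed it anew, 2 lost it and 1 turned sign; the same counts for leaving out a library were 288, 2, 3 and 19. The cause of these changes was not tested, but leaving out a library or fitting 2 groups alone uses fewer samples.

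For SCR against WT in medium, the 1 member past the threshold became 2 with DESeq2, 3 without the filter and 2 with the replicate block, and 0 to 1 when a library was left out. For KD against WT in medium, 3 members became 1 with the groups alone and stayed 3 when a library was left out. For KD against SCR in medium, 0 became 1 with DESeq2, without the filter and with the replicate block, which was AKT2 each time; with a library left out it was 0. For LPS in KD the count ran from 3 to 4. In the untested comparisons with WT, the number of members below 0 ran from 3 to 4 for SCR and was 3 for KD with LPS, and from 3 to 5 and 2 to 4 for the difference in LPS response. Without the filter, AKT1 also passed with LPS in WT (-0.43, edgeR adjusted p = 0.0379) and in KD (0.73, edgeR adjusted p = 1.32e-05), and PIM1 and SGK1 in SCR against WT in medium (0.59 and 1.09, edgeR adjusted p = 0.0421 and 0.0259). Pathway genes past the threshold went from 2 to 5 in SCR against WT in medium with DESeq2 and without the filter, from 0 to 2 in KD against SCR in medium with both, and from 0 to 3 and 4 with LPS. Of the alternatives, pathway genes were followed only under RLE normalization, DESeq2 and no filter.

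Among the values with a test, signs that turned belonged to values smaller than their SE. The largest was -0.22 ± 0.27, for AKT1 in KD against SCR in medium. Without the filter, AKT1 in SCR against WT in medium was -0.005. Leaving out a library gave ranges for AKT1 of -0.13 to 0.22 in SCR against WT, -0.52 to 0.049 in KD against WT and -0.53 to 0.048 in KD against SCR in medium, and -0.019 to 0.33 with LPS in SCR. For PIM1 they were -0.044 to 0.39 in KD against WT in medium and -0.043 to 0.34 in KD against SCR with LPS, for SGK1 -0.059 to 0.25 in KD against SCR with LPS, for PDPK1 -0.15 to 0.025 with LPS in SCR, and for the difference in response between KD and SCR -0.10 to 0.072 for PDPK1 and -0.048 to 0.13 for PIM3.

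The replicate block was fitted within a stimulation state. Same-number correlations outside SCR and WT with LPS ran from -0.0875 to 0.304, so the numbers were not taken to pair those libraries; in SCR against WT with LPS the blocked values were -0.51 for PIM2 and -0.74 for AKT2, as without the block. In medium the block brought past the threshold PIM1 in SCR against WT (0.62, edgeR adjusted p = 0.0475) and AKT2 in KD against SCR (-0.50, edgeR adjusted p = 0.016), and it changed no other call of a member. Counts over all genes moved too. SCR against WT in medium had 538 genes, 929 with DESeq2, 934 with the block and 193 to 510 with a library left out. KD against WT in medium had 1951, 280 with the groups alone and 962 to 1934 with a library left out. KD against SCR had 11 in medium and 0 with LPS, 320 and 425 without the filter, 183 and 85 with the block, and 48 and 12 with GC offsets; with the groups alone it had 0 and 161. LPS in KD had 1912, 847 with the groups alone, and 1098 to 3150 with a library left out, the highest without KD medium replicate 1. Depth limits SGK1 most, with as few as 12 counts in a library.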

Other observations

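The genes whose log2 CPM ran most like each kinase over the 18 libraries are given as a description, since all points share the 6 groups and the same libraries. PIM1 was followed most closely by TXNRD1 (a thioredoxin reductase, r = 0.975), the chemokine CCL20 (r = 0.971) and ELOA (r = 0.970). PIM2 was followed by the lysosomal channel MCOLN2 (r = 0.985), DRAM1 (r = 0.981) and NAV3 (r = 0.978). For PIM3 they were IFNGR2, a subunit of the interferon gamma receptor (r = 0.971), TNFAIP8 (r = 0.971) and POU2F2, a transcription factor of the POU family (r = 0.969). SGK1 ran most like the MAP kinase phosphatase DUSP4 (r = 0.931), and MTSS1 also ran like it (r = 0.921).

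AKT2 ran most like the clathrin adaptor subunit AP1B1 (r = 0.973), PBX3 (r = 0.967) and PIGT (r = 0.947). AKT1 ran most like the ribosomal protein pseudogene RPL23AP42 (r = 0.967), TFB2M (r = 0.962) and a gene without a symbol, ENSG00000258581 (r = 0.959); its lowest libraries, WT replicate 6 with LPS and KD replicate 2 in medium, were also the lowest of their groups for PIM1 and TRAFD1. PDPK1 had the weakest likeness, with UCP2 (r = 0.876), COPG1 (r = 0.865) and RABAC1 (r = 0.863).

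Among the members themselves, PIM2 and PIM3 ran most alike (r = 0.94 over 18 libraries), followed by PIM1 and PIM3 (r = 0.84), PIM1 and SGK1 (r = 0.79) and PIM1 and PIM2 (r = 0.75). AKT2 and SGK1 ran opposite ways (r = -0.62), as did AKT1 and AKT2 (r = -0.46).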
